A study of Arabidopsis thaliana with 36 samples.

Results

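The genes described here are 39 genes of ribosome biogenesis and the nucleolus of Arabidopsis thaliana, taken by their gene codes from a table of 33619 codes. They were chosen by function and not by a measured value, though earlier results of these data were known. They are 5 proteins of the box C/D small nucleolar ribonucleoproteins (snoRNPs), 4 of the H/ACA snoRNPs, 2 nucleolins and 2 subunits of RNA polymerase I. The others are 12 factors of pre-rRNA processing, 10 factors of subunit assembly and 4 factors of export and release. Messenger RNA was sequenced from whole 4-day-old seedlings in 36 libraries, with 3 biological replicates in each of 12 groups. For the ethylene experiment, seedlings of the wild type Col-0, grown with 0.5% glucose, were given either 10 μM ACC, which plants convert to ethylene, or mock solution, each over 2 h and over 4 h. In the glucose-TOR experiment, Col-0 seedlings and seedlings labelled tor were grown without glucose for 4 days, after which 15 mM glucose was given or withheld over 2 h. The libraries labelled tor come from XVE-TOR RNAi seedlings, in which silencing of the TOR kinase gene is inducible; the labels name no inducer and do not say whether the Col-0 seedlings received one. In the glucose-HXK1 experiment, Ler wild-type seedlings and gin2 mutant seedlings, which lack functional HEXOKINASE1 (HXK1), were treated in the same way. Values are reads per 1000000 reads (RPM), and 37 of the 39 genes are listed for the glucose-HXK1 experiment; NUC-L2 and RRP5 are not listed there.

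A ribosome is built in the nucleolus, where RNA polymerase I makes a long precursor rRNA that snoRNPs modify and a series of processing factors cut. Assembly factors join the rRNA to ribosomal proteins, and export and release factors carry the subunits to the cytosol, where the last of them are removed. The genes for these proteins are transcribed most in growing and dividing plant tissue, and sugar and the TOR kinase are known regulators of growth in seedlings. In whole seedlings, fewer cells of a type and less RNA per cell cannot be told apart.

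The genes named in the labels were examined first. TOR was at 114, 109.9 and 120.2 RPM in the Col-0 libraries without glucose and at 223, 224 and 224 RPM in the libraries labelled tor without glucose. It was thus higher in the libraries of the inducible silencing line (log2 change 0.96 ± 0.07 SE, limma adjusted p = 3.58e-07). RPM by gene code cannot tell reads of the TOR gene from reads of a silencing construct that carries its sequence. The labels name no inducer, so they do not say that TOR was silenced in these seedlings. HXK1 was at 40.4, 39.8 and 21.7 RPM in Ler and at 14.1, 15.5 and 13.7 RPM in gin2 without glucose, which is lower in every gin2 library (log2 change -1.13 ± 0.25 SE, limma adjusted p = 0.00112). Reads on listed genes, in units of 1000000 (M), ranged from 16.4 to 21.5 M for the 12 ethylene libraries, from 13.3 to 21.9 M for the 12 glucose-TOR libraries and from 5.64 to 13.6 M for the 12 glucose-HXK1 libraries. In the last, 26.8% to 54.3% of each Ler library's RPM and 13.0% to 18.0% of each gin2 library's RPM lie on genes that are not listed, which bears on every level set between Ler and gin2.

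Glucose for 2 h raised 38 of the 39 genes in Col-0 and lowered none, where 35.7% of the 19336 genes tested were called higher and 20.6% lower. A gene is called where the adjusted p of limma, over all genes of an experiment, is below 0.05. The 39 genes had a median log2 change of 1.73, against 0.14 for all genes tested. Their RPM summed to 1828, 1422 and 1906 in the 3 Col-0 libraries without glucose and to 5547, 5739 and 5703 in the 3 with glucose. The lowest sum with glucose was therefore far above the highest without it. At least a 2-fold change on the log2(RPM + 1) scale was fitted for 33 genes and at least a 4-fold change for 10. REIL1 was the gene not called. MTR4 and REIL2, the smallest of the 38 changes, were not called under a scaling by the median ratio of genes to a reference library. REIL1 was called lower under that scaling, at -0.30 on the log2 scale.

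Another 57 genes of ribosome biogenesis, which are not among the 39 and were also chosen with earlier results known, were read beside them. In Col-0, 50 of them were called higher and 1 lower with glucose, at a median log2 change of 1.54. The largest change was of AT4G04940, annotated as a WD-40 repeat protein of the transducin family, at 10.8, 7.64 and 10.9 RPM without glucose and 90.5, 91.6 and 98.8 RPM with it (log2 change 3.15 ± 0.16 SE, limma adjusted p = 7.79e-09). The second largest was of OLI2, annotated as a methyltransferase, with a log2 change of 2.66 ± 0.23 SE (limma adjusted p = 8.39e-07). The gene called lower was XRN3, an exoribonuclease, with a log2 change of -0.30 ± 0.07 SE (limma adjusted p = 0.00308).

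**Figure D1:**
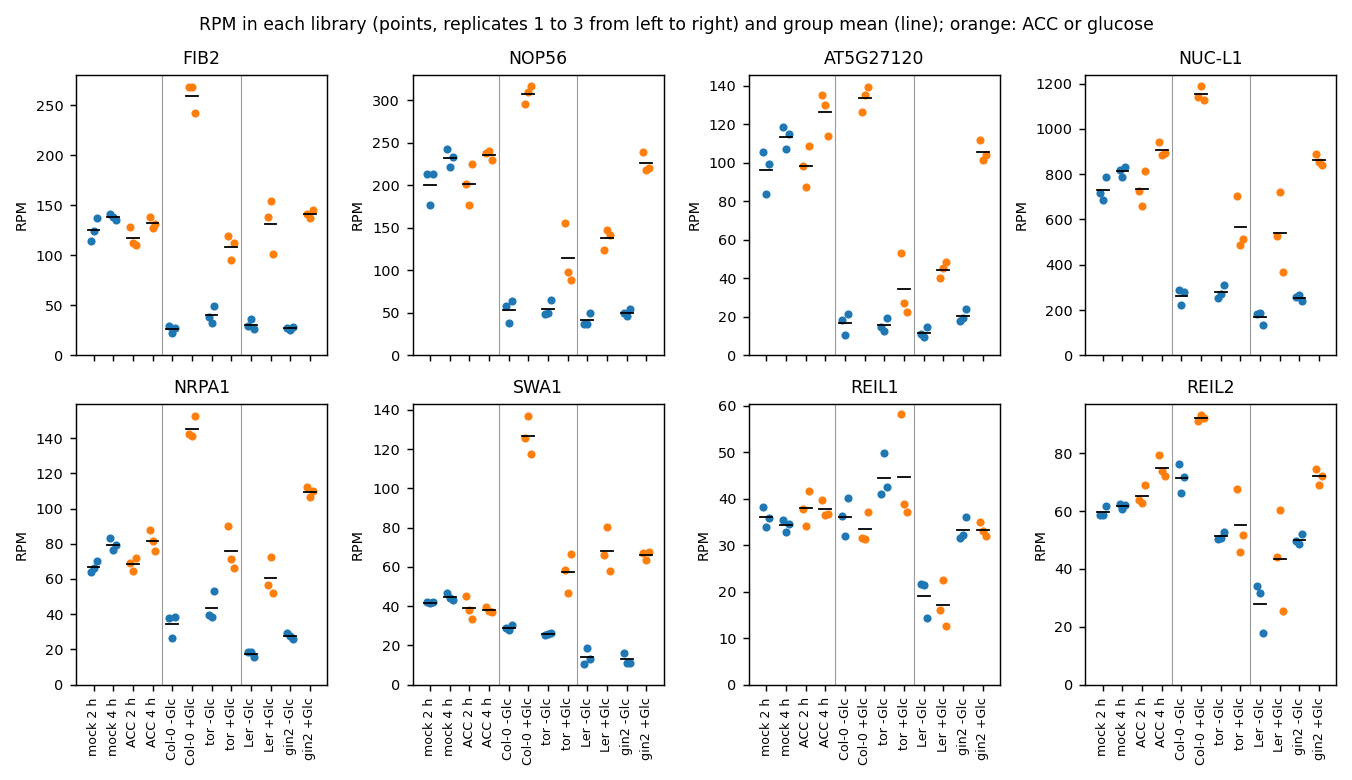
RPM (vertical axes) of 8 of the genes in each of the 36 libraries, by group (horizontal axes); points are libraries, black lines group means of 3, blue marks controls and orange marks ACC or glucose. Fibrillarin FIB2 and 5 others rise with glucose in all 4 genotypes, while the REIL1 libraries with and without glucose overlap in Col-0.

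Promoters of these genes are shown because 2 short sequences, the telo-box AAACCCTA and site II (TGGGCC or TGGGCT), are known from plant promoters of ribosomal protein and other growth genes. RefSeq gene starts on the TAIR10.1 build were used; the build of the deposited counts is not given in the sources used here, and no coordinate of theirs was needed. In windows from 250 bases before to 50 bases after the gene start, exact matches on either strand were counted. A telo-box was present for 18 of the 39 genes (46.2%), against 6.22% of 27443 nuclear protein-coding genes. Site II was present for 27 of the 39 (69.2%), against 21.7% of all genes. Both were present for 13 of the 39 (33.3%), against 2.20% of all genes, and 7 of the 39 had neither. No match of one overlapped a match of the other in the 39. A palindromic TGGGCCCA counts on both strands.
The 120 bases before the gene start follow for 6 genes, 5′ to 3′ on the gene's strand, with matches in capitals. NOP56 (chr1:20986953-20987072, minus strand), AT5G27120 (chr5:9540741-9540860, plus strand) and AT2G40360 (chr2:16856772-16856891, minus strand) hold both sequences in that stretch; AT1G52930 (chr1:19711059-19711178, plus strand) and IMP4 (chr1:23667373-23667492, minus strand) hold 3 site II matches each; NRPA1 (chr3:21353377-21353496, plus strand), shown for contrast, holds neither.
NOP56: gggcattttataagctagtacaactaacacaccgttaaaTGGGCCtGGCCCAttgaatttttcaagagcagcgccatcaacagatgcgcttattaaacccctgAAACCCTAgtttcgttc
AT5G27120: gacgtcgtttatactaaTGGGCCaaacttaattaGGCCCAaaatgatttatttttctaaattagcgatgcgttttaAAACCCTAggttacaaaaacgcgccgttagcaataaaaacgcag
AT2G40360: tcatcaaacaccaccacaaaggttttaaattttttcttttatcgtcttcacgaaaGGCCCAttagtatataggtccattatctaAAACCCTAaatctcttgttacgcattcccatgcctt
AT1G52930: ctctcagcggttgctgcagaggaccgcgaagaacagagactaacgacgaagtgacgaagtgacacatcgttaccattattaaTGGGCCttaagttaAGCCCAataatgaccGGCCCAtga
IMP4: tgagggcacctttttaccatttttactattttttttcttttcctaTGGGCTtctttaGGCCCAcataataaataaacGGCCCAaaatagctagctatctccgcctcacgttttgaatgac
NRPA1: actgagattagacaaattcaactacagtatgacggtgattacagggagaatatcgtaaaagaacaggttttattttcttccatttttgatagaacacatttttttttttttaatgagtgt

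Across all genes tested in Col-0, the 450 with both sequences had a median log2 glucose change of 0.63, and 66.0% of them were called higher. The 578 with a telo-box alone had a median of 0.37, with 51.7% called higher. For the 4384 with site II alone the median was 0.19, with 39.3% called higher, and for the 13394 with neither it was 0.12, with 33.8%. Among the 39 genes the medians were 1.99 for the 13 with both, 1.94 for the 5 with a telo-box alone, 1.43 for the 14 with site II alone and 1.47 for the 7 with neither. The genes without either sequence therefore also rose: all 7 were called. NRPA1, with no match, changed by 2.07 and IMP4, with 3 site II matches, by 1.41. These are descriptions of letters in a window and were not tested further.

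The box C/D snoRNP proteins, which guide and carry out methylation of rRNA, changed most: all 5 were called higher in Col-0, at a median log2 change of 2.54. FIB2, one of a pair of fibrillarins (the methyltransferase of the complex), was at 29.3, 22.5 and 27.2 RPM without glucose and 268, 268 and 242 RPM with it. Each library with glucose was far above each without. The fitted log2 change was 3.26 ± 0.14 (SE, limma adjusted p = 2.23e-09), the largest of the 39. FIB1, the other fibrillarin, was at 144, 142 and 151 RPM and rose to 368, 379 and 369.9 RPM (log2 change 1.35 ± 0.09 SE, limma adjusted p = 8.31e-08). FIB1 started higher and rose less. NOP56, a core protein of the complex, went from 57.7, 37.9 and 64.2 to 295, 309 and 316 RPM (log2 change 2.54 ± 0.21 SE, limma adjusted p = 5.48e-07). AT5G27120, annotated as a NOP56-like ribonucleoprotein, went from 18.5, 10.8 and 21.4 to 126, 135 and 139 RPM (log2 change 2.96 ± 0.28 SE, limma adjusted p = 1.76e-06). In both, replicate 2 without glucose was the lowest library. AT3G05060, a second NOP56-like protein, went from 39.3, 20.4 and 45.7 to 119, 137 and 142 RPM (log2 change 1.96 ± 0.27 SE, limma adjusted p = 4.66e-05). Replicate 2 of Col-0 without glucose was the lowest of its group for 38 of the 39 genes. Its chloroplast reads were 1.30% of the RPM, against 0.77% and 0.46% in replicates 1 and 3. Its 3 genes of green tissue summed to 34883 RPM, against 27295 and 26425 RPM in those libraries. The part of these differences in the result was not tested.

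The H/ACA snoRNPs guide pseudouridylation of rRNA, and all 4 of their genes rose in Col-0, at a median log2 change of 1.50. NAP57, the pseudouridine synthase, was at 59.4, 46.4 and 64.4 RPM without glucose and 244, 269 and 248 RPM with it (log2 change 2.15 ± 0.17 SE, limma adjusted p = 2.60e-07). NOP10, a small structural subunit, was at 19.8, 18.2 and 20.5 and 58.5, 60.7 and 55.3 RPM (log2 change 1.53 ± 0.09 SE, limma adjusted p = 4.17e-08). AT5G08180, of the L7Ae family of RNA-binding proteins, was at 51.9, 32.6 and 46.0 and 120.1, 116 and 126 RPM (log2 change 1.47 ± 0.16 SE, limma adjusted p = 4.08e-06). No library with glucose overlapped one without it in any of these 3. AT3G03920, annotated as the Gar1/Naf1 subunit, changed by 1.33 ± 0.12 SE on the log2 scale.

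Nucleolin, an abundant nucleolar protein that acts on rRNA genes and on the early precursor, has a pair of genes in Arabidopsis. NUC-L1 was at 289, 223 and 281 RPM without glucose and 1143, 1188 and 1129 RPM with it (log2 change 2.13 ± 0.14 SE, limma adjusted p = 7.53e-08). NUC-L2 was at 1.27, 0.837 and 0.687 and 7.15, 7.29 and 6.03 RPM (log2 change 2.02 ± 0.25 SE, limma adjusted p = 1.74e-05). Both rose without overlap, and NUC-L2 stayed at a few RPM. Per kilobase of transcript, NUC-L1 was the highest of the 39 in Col-0 with glucose, at 552 ± 14.6 RPM per kb (SD, n = 3), and NUC-L2 the lowest, at 3.24 ± 0.329 RPM per kb (SD, n = 3). The catalytic subunits of RNA polymerase I, which transcribes the rRNA genes, rose as well. NRPA1, the largest subunit, was at 37.9, 26.5 and 38.4 RPM without glucose and 142, 141 and 153 RPM with it (log2 change 2.07 ± 0.16 SE, limma adjusted p = 2.71e-07). NRPA2, the second largest, was at 56.0, 48.5 and 65.7 and 167, 169 and 172 RPM (log2 change 1.57 ± 0.14 SE, limma adjusted p = 8.08e-07). In neither gene did a library with glucose fall as low as the highest one without it.

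All 12 factors of pre-rRNA processing were called higher in Col-0, from 0.47 for MTR4 to 2.1 for PUM24 on the log2 scale. PUM24, a nucleolar Pumilio protein, was at 26.2, 16.5 and 28.8 RPM without glucose and 96.4, 104 and 109 RPM with it (log2 change 2.1 ± 0.24 SE, limma adjusted p = 6.93e-06). SWA1, a WD-40 protein needed for 18S rRNA maturation, was at 29.0, 27.9 and 30.3 and 126, 137 and 117 RPM (log2 change 2.08 ± 0.11 SE, limma adjusted p = 1.47e-08). RRP5, a large processing factor, was at 51.4, 37.0 and 53.6 and 189, 179 and 187 RPM (log2 change 1.96 ± 0.15 SE, limma adjusted p = 2.15e-07). These 3 had the largest changes of the group, with no overlap between libraries. The WD-40 proteins YAO and TOZ followed at 1.94 and 1.80, and the methyltransferase RID2 at 1.76. Smaller changes were fitted for AT5G66540, annotated as a U3 snoRNP protein (1.46), for IMP4, a Brix-domain protein of the U3 snoRNP (1.41), and for the RNA helicase RH36 (1.30). NOF1, annotated as a U3-associated protein, changed by 0.89 and the second Pumilio protein, PUM23, by 0.82. MTR4, the RNA helicase that feeds precursors to the exosome, was at 42.9, 31.2 and 45.6 RPM without glucose and 55.1, 53.9 and 55.2 RPM with it (log2 change 0.47 ± 0.17 SE, limma adjusted p = 0.0298). Its call was lost without replicate 2 of Col-0 without glucose, where the change was 0.30, and without any one of the libraries with glucose.

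The 10 assembly factors were all called higher in Col-0, at a median log2 change of 1.76. AT3G15460, a Brix-domain protein of rRNA processing, was at 5.54, 2.68 and 4.18 RPM without glucose and 25.6, 25.2 and 25.8 RPM with it (log2 change 2.41 ± 0.23 SE, limma adjusted p = 1.54e-06). AT1G52930, annotated with the same domain and holding 3 of the site II matches printed above, was at 16.7, 14.2 and 18.7 and 68.8, 68.0 and 67.7 RPM (log2 change 1.99 ± 0.16 SE, limma adjusted p = 4.33e-07). NSN1, a nucleolar GTPase related to nucleostemin, was at 44.1, 30.3 and 47.2 and 146, 158 and 162 RPM (log2 change 1.94 ± 0.21 SE, limma adjusted p = 5.49e-06). The libraries with and without glucose did not overlap in any of the 3. EDA25, a nucleolar protein also known as SWA2, changed by 1.83 and AT2G37990, of the RRS1 family, by 1.73. The WD-40 repeat proteins AT5G15550 and AT2G40360 changed by 1.78 and 1.63. PES, the pescadillo homologue of large-subunit assembly, changed by 1.47, EBP1, a growth regulator, by 1.32, and RID3, a WD-40 protein, by 1.22.

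The export and release factors changed least, with a median log2 change of 0.49 over their 4 genes. LSG1-2, a GTPase that frees the large subunit of NMD3, was at 18.2, 12.9 and 19.4 RPM without glucose and 42.6, 47.1 and 46.9 RPM with it (log2 change 1.40 ± 0.20 SE, limma adjusted p = 5.62e-05). NMD3, the export adaptor of the large subunit, was at 99.4, 93.5 and 109.5 and 151, 154 and 158 RPM (log2 change 0.61 ± 0.10 SE, limma adjusted p = 1.23e-04). Both rose without overlap. REIL1 and REIL2 are zinc-finger proteins that act on the large subunit in the cytosol. REIL1 was at 36.2, 32.0 and 40.2 RPM without glucose and 31.6, 31.4 and 37.3 RPM with it, and the groups overlapped (log2 change -0.11 ± 0.16 SE, limma adjusted p = 0.578). REIL2 was at 76.3, 66.3 and 71.8 and 91.2, 93.3 and 92.2 RPM (log2 change 0.37 ± 0.12 SE, limma adjusted p = 0.0168), a call that was lost without replicate 2 of Col-0 without glucose.

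**Figure D2:**
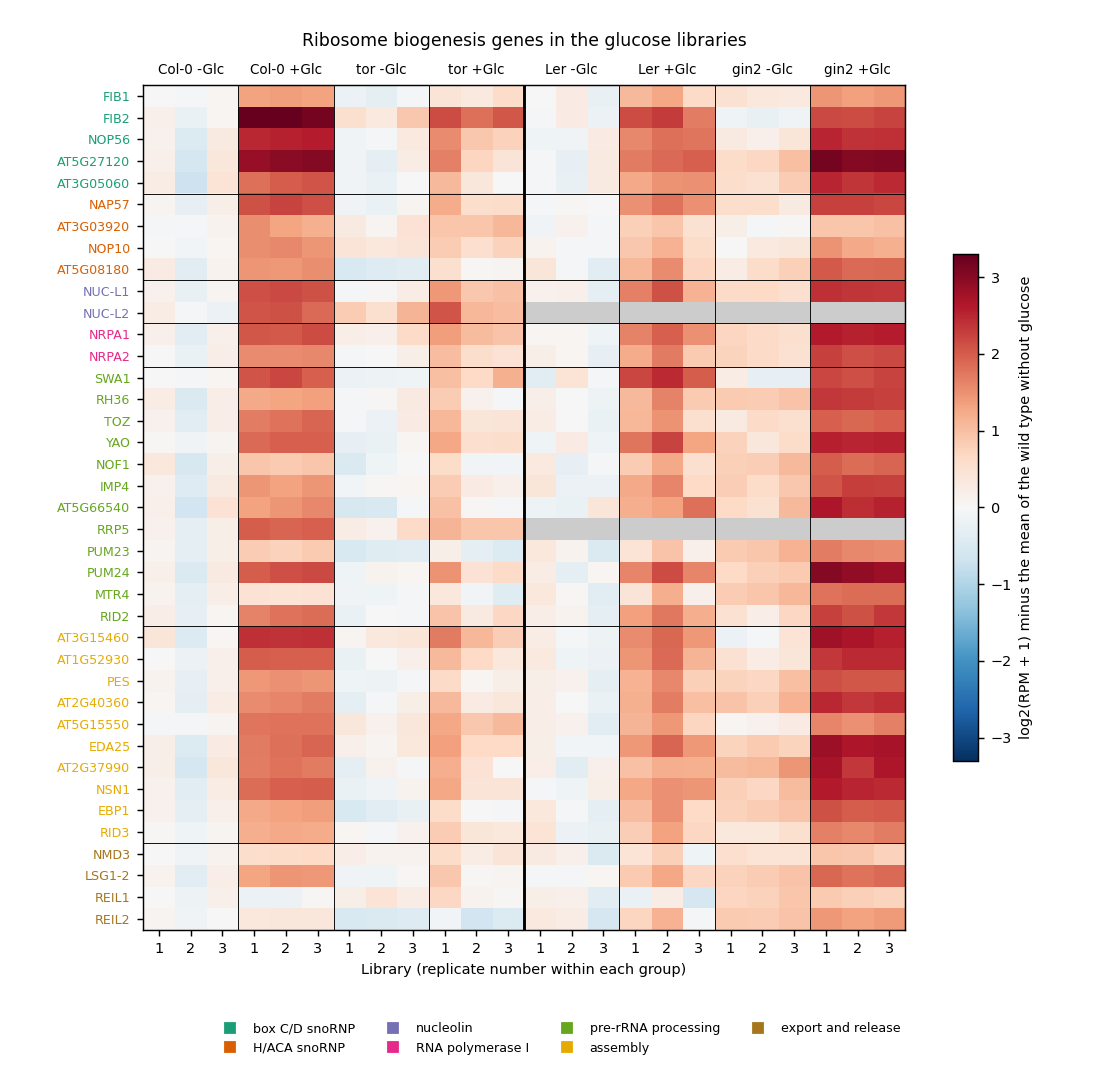
log2(RPM + 1) of the 39 genes (rows, coloured by role) in the 24 glucose libraries (columns, 3 per group), as the difference from the mean of the wild type without glucose of the same experiment; grey marks genes that are not listed. The Col-0 libraries with glucose are high in nearly all rows, and the libraries labelled tor with glucose are paler, replicate 1 least so.

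In the libraries labelled tor, glucose raised 27 of the 39 genes and lowered none, where 19.9% of all genes were called higher and 14.8% lower. The median log2 change was 0.64, against 0.05 for all genes, and 5 of the called genes changed at least 2-fold. Their RPM summed to 1597, 1617 and 1866 without glucose and to 3466, 2420 and 2523 with it, so the groups did not overlap but replicate 1 stood far above the others. That library was the highest of its group for 36 of the 39 genes. Its chloroplast reads were 0.49% of the RPM, against up to 3.71% in its group, and its 3 genes of green tissue summed to 9372 RPM, against 15515 and 18399 RPM in the other two. The part of these differences in the result was not tested. Without it, 22 genes were called higher and the median change was 0.45, where 3265 of all 19284 genes tested were called higher and 3630 lower.

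The changes in the libraries labelled tor, as a share of the log2 change in Col-0, ranged from 11.6% to 52.9% over the 38 genes called in Col-0, with a median of 38.7%. FIB2 was at 38.2, 32.7 and 49.4 RPM without glucose and 119, 95.0 and 112 RPM with it (log2 change 1.43 ± 0.14 SE, limma adjusted p = 1.05e-05). NUC-L1 was at 252, 271 and 311 and 703, 486 and 513 RPM (log2 change 1.01 ± 0.14 SE, limma adjusted p = 1.47e-04). SWA1 was at 25.5, 25.6 and 26.5 and 58.4, 46.7 and 66.6 RPM (log2 change 1.10 ± 0.11 SE, limma adjusted p = 1.35e-05). In these 3 every library with glucose was above every one without it, yet below every Col-0 library with glucose. AT5G27120, the NOP56-like protein with both promoter sequences, was at 14.9, 12.7 and 19.3 and 53.1, 27.1 and 22.3 RPM (log2 change 1.00 ± 0.28 SE, limma adjusted p = 0.0154). Without replicate 1 of the libraries labelled tor with glucose its change was 0.64 (limma adjusted p = 0.045). Leaving out that library also took the changes of TOZ, PES, AT2G40360, EDA25 and NMD3 below the threshold.

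The difference between the 2 glucose responses was tested as an interaction in the same fit. It was called for 31 of the 39 genes, all toward a smaller change in the libraries labelled tor, where 11.2% of all genes were called in that direction and 6.21% in the other. The median difference was -1.01 on the log2 scale, against -0.10 for all genes. By role, all 5 box C/D genes, all 4 H/ACA genes, both nucleolins and both RNA polymerase I subunits were called, with 8 of 12 processing factors, 9 of 10 assembly factors and 1 of 4 export factors. The largest differences were of AT5G27120 (-1.96 ± 0.40 SE, limma adjusted p = 0.00611) and FIB2 (-1.83 ± 0.20 SE, limma adjusted p = 1.80e-04). NOP56 followed at -1.51 ± 0.30 SE (limma adjusted p = 0.00524). Not called were AT2G37990, AT5G66540, MTR4, NMD3, NOF1, PUM23, REIL1 and REIL2. Of the 31 calls, 21 were made in every alternative fit, and 22 also passed an added minimum of 2-fold. Of the other 57 genes of the pathway, 32 were called lower and none higher, at a median of -0.94.

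With glucose, 37 of the 39 genes were lower in the libraries labelled tor than in Col-0 and 1 was higher, where 24.1% of all genes were called lower and 37.3% higher. The median difference was -1.05, against 0.14 for all genes. AT5G27120 had the largest, at -2.03 ± 0.28 SE (limma adjusted p = 4.40e-05). AT3G05060 and NOP56 followed, both at -1.47. REIL1 was the gene called higher (0.38 ± 0.16 SE, limma adjusted p = 0.0463), with libraries that overlapped: 58.2, 38.9 and 37.1 RPM against 31.6, 31.4 and 37.3 RPM. Its call was lost without replicate 1 of the libraries labelled tor with glucose, at 0.18, and without replicate 1 or replicate 2 of Col-0 with glucose. NMD3 was not called (-0.18 ± 0.10 SE, limma adjusted p = 0.11).

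Without glucose, 4 of the 39 genes were called higher in the libraries labelled tor than in Col-0 and 3 lower, where 40.3% and 15.0% of all genes were, and the median was -0.02 against 0.24 for all genes. FIB2 was higher, at 38.2, 32.7 and 49.4 RPM against 29.3, 22.5 and 27.2 RPM, without overlap (log2 change 0.58 ± 0.14 SE, limma adjusted p = 0.00402). NOP10 (0.40), AT5G15550 (0.30) and NUC-L2 (0.83) were also higher. REIL2 was lower, at 50.3, 50.9 and 53.0 RPM against 76.3, 66.3 and 71.8 RPM, without overlap (log2 change -0.47 ± 0.12 SE, limma adjusted p = 0.00428), as were AT5G08180 (-0.44) and PUM23 (-0.41). These counts depend on the scaling. With the median-ratio scaling, which centres all genes near 0, 4819 of all 19377 genes tested were called higher and 5294 lower. Of the 39 genes, 1 was higher and 13 were lower there, at a median of -0.29. The count of lower genes was 1 without replicate 1 or replicate 3 of Col-0 without glucose, or without replicate 1 or replicate 2 of the libraries labelled tor without glucose, and it was 5 without replicate 2 of Col-0 without glucose. The count of higher genes was 2 without replicate 3 of the libraries labelled tor without glucose.

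Marker genes of dividing cells, roots and green tissue were read beside these results, and none of them was at 0 in all libraries of a group that lists it. The 8 genes of dividing cells (cyclins, cyclin-dependent kinases and KNOLLE) summed to 37.1 to 47.7 RPM in Col-0 without glucose and to 58.3 to 66.3 RPM with it. In the libraries labelled tor they summed to 37.0 to 54.5 RPM without glucose and to 36.5 to 54.9 RPM with it. The 3 genes of roots summed to 28.5 to 30.7 RPM in Col-0 without glucose and to 65.4 to 72.2 RPM with it. In the libraries labelled tor they were at 45.2 to 67.3 RPM without glucose, above every such Col-0 library, and at 57.6 to 62.2 RPM with it. The 3 genes of green tissue summed to 26425 to 34883 RPM in Col-0 and 12862 to 15605 RPM in the libraries labelled tor without glucose, with no overlap. With glucose they summed to 21978 to 25071 RPM in Col-0 and 9372 to 18399 RPM in the libraries labelled tor, again with no overlap. Their part in the changes of the 39 genes was not tested.

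In Ler, the wild type of the other glucose experiment, 32 of the 37 genes listed rose with glucose and none fell, where 17.4% of all genes were called higher and 11.3% lower. The median log2 change was 1.18, against 0.10 for all genes. SWA1 changed most, from 10.3, 18.9 and 13.0 RPM to 66.0, 80.3 and 57.7 RPM (log2 change 2.22 ± 0.23 SE, limma adjusted p = 2.01e-08). FIB2 went from 29.2, 36.6 and 26.4 to 138, 155 and 101 RPM (log2 change 2.05 ± 0.22 SE, limma adjusted p = 2.54e-08). AT5G27120 went from 11.3, 9.48 and 14.5 to 40.0, 45.2 and 48.3 RPM (log2 change 1.85 ± 0.21 SE, limma adjusted p = 1.23e-07). The libraries did not overlap in these 3, and Ler with glucose replicate 2 was the highest of its group for 34 of the 37 genes on RPM. That library had 28.6% of its RPM outside the genes listed, against 41.2% in replicate 1 and 54.0% in replicate 3. Divided by the listed genes only, FIB2 was at 236, 216 and 220 RPM in replicates 1 to 3. NUC-L1 was at 897, 1008 and 805 RPM and stayed highest in replicate 2. The part of the unlisted RPM in this order was not tested. MTR4, PUM23, NMD3, REIL1 and REIL2 were not called, and REIL1 was called lower under the median-ratio scaling (-0.17 on RPM and -0.27 there).

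In gin2, 34 of the 37 genes rose with glucose and none fell, where 18.7% of all genes were called higher and 8.73% lower. The median log2 change was 1.46, against 0.13 for all genes. AT3G15460 changed most, from 2.05, 2.31 and 3.69 RPM to 23.0, 21.5 and 19.3 RPM (log2 change 2.62 ± 0.22 SE, limma adjusted p = 7.05e-10). FIB2 went from 27.4, 25.7 and 27.9 to 141, 138 and 145 RPM (log2 change 2.35 ± 0.22 SE, limma adjusted p = 3.24e-09). Both rose several-fold with no overlap. NMD3, REIL1 and REIL2 were not called, and PUM23 lost its call without any one of the gin2 libraries. The 7 genes of dividing cells listed for both genotypes summed to 42.4 to 80.8 RPM without glucose and 40.9 to 82.5 RPM with it in Ler, and to 77.2 to 83.4 RPM and 73.9 to 84.1 RPM in gin2, so their libraries overlapped in both genotypes. The 3 genes of roots summed to 24.1 to 29.3 RPM without glucose and 37.7 to 57.1 RPM with it in Ler, and to 23.9 to 26.3 RPM and 45.9 to 47.9 RPM in gin2, with no overlap in either. The part of the root genes was not tested. Of the 38 genes called higher in Col-0, 25 were also called higher in the libraries labelled tor, in Ler and in gin2. NUC-L2 and RRP5 are among the 38 but could not be called in Ler or gin2, where they are not listed. The share of all genes called higher in all 4 was not counted. Taken singly, the shares were 35.7% in Col-0, 19.9% in the libraries labelled tor, 17.4% in Ler and 18.7% in gin2.

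**Figure D3:**
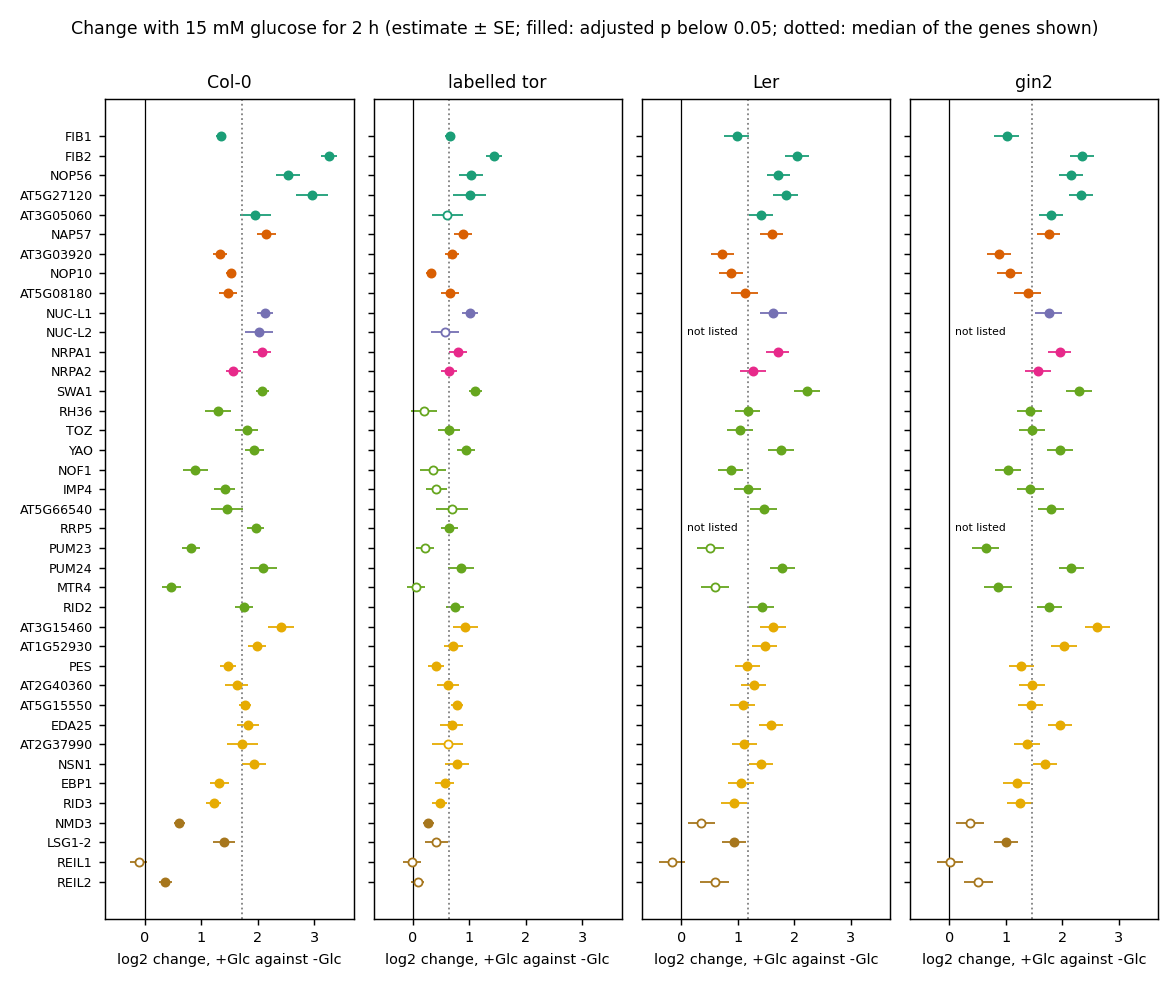
Fitted log2 change with glucose (horizontal axes, estimate ± SE from 3 libraries a group) of each of the 39 genes (rows, coloured by role) in Col-0, the libraries labelled tor, Ler and gin2; filled points were called and the dotted lines are the medians of 1.73, 0.64, 1.18 and 1.46. The median of the libraries labelled tor is the nearest of the 4 to 0.

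The glucose response of gin2 was compared with that of Ler by an interaction, and no gene of the 37 was called in limma, where 0.236% of all genes were called higher and 0.0576% lower. The differences were positive for 36 of the 37 genes, with a median of 0.26 on the log2 scale, against 0.06 for all genes. At an unadjusted p below 0.05, 1 gene was higher and none lower. How many of all genes had a positive difference or such a p was not counted, so these counts stand without a baseline. AT3G15460 had the largest difference, 0.99 ± 0.32 SE (limma adjusted p = 0.436). It was the 1 gene that edgeR and DESeq2 called, at adjusted p = 0.038 and 0.0166. A p above the threshold does not show that the responses were alike.

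Between gin2 and Ler, 22 of the 37 genes were called higher in gin2 without glucose and 30 with it, and none lower, where 49.9% and 57.1% of all genes were called higher and 1.66% and 1.61% lower. The median differences of 0.63 and 0.92 stood against 0.55 and 0.62 for all genes, a shift of the whole table toward gin2. Divided by the listed genes only, the shift of all genes was 0.15 in both. Of the 37 genes, 11 and 20 were then called higher and 3 and 1 lower. Of all 17352 genes tested, 4506 and 4740 were called higher by that division and 1864 and 1969 lower. Under the median-ratio scaling 5 and 12 of the 37 were higher and 5 and 3 lower, at medians of 0.02 and 0.26. Of all genes, 2585 and 2974 were higher under that scaling and 3018 and 2913 lower. FIB2 was at 141, 138 and 145 RPM in gin2 and 138, 155 and 101 RPM in Ler with glucose, and its sign differed between RPM and that scaling (0.13 and -0.53). AT2G37990 was higher with glucose on both, at 1.46 and 0.81 (limma adjusted p = 2.16e-05 and 0.0106).

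Several of the genes are paralogue pairs, and their levels were set against each other within each library. How reads shared by paralogues were counted is not given in the sources used here, so the split between them is uncertain. FIB1 exceeded FIB2 by 2.43 ± 0.18 on the log2(RPM + 1) scale in Col-0 without glucose and by 0.52 ± 0.08 with it (SD, n = 3). The same difference was 1.66 ± 0.16 and 0.88 ± 0.13 in the libraries labelled tor, 1.53 ± 0.04 and 0.46 ± 0.02 in Ler, and 2.09 ± 0.10 and 0.76 ± 0.04 in gin2 (SD, n = 3). With glucose the fibrillarins were thus closer in every genotype. AT5G27120 was below AT3G05060 by 0.99 ± 0.11 in Col-0 without glucose and differed from it by 0.01 ± 0.06 with glucose (SD, n = 3). In the libraries labelled tor the difference was -0.95 ± 0.17 without glucose and -0.56 ± 0.12 with it (SD, n = 3). REIL1 was below REIL2 by 0.97 ± 0.13 in Col-0 without glucose and by 1.44 ± 0.14 with it (SD, n = 3). AT3G15460 was below AT1G52930 in all 36 libraries, and NUC-L1 was above NUC-L2 by more than 6 log2 units in each of the 24 libraries that list both.

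**Figure D4:**
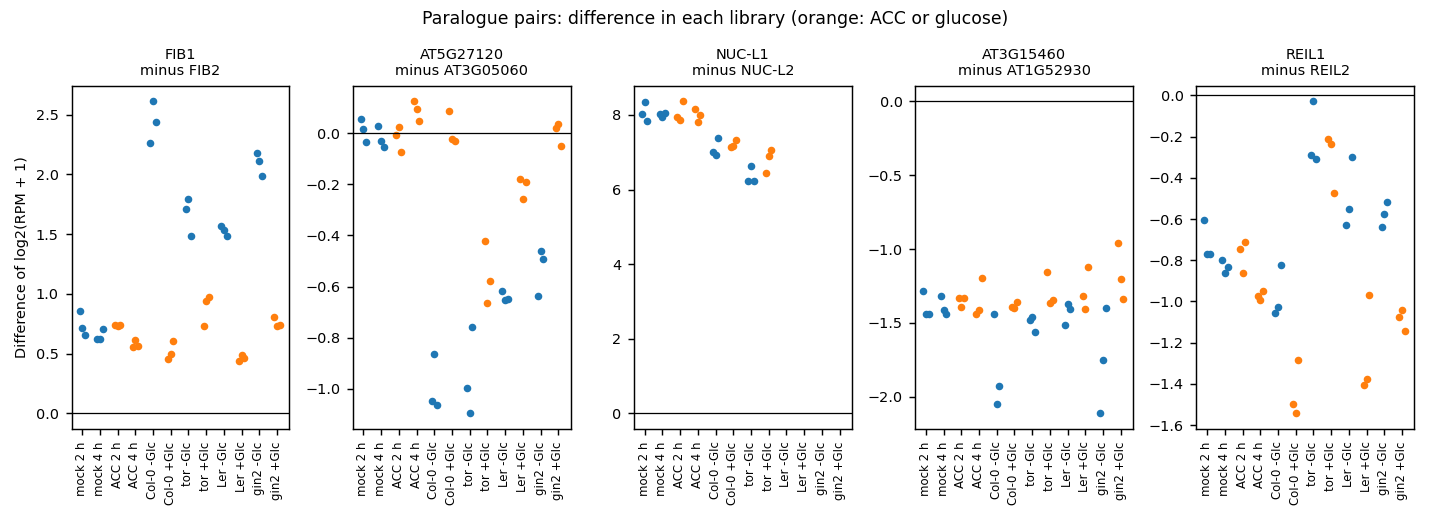
Difference in log2(RPM + 1) between the 2 genes of 5 paralogue pairs (vertical axes) in each library, by group (horizontal axes); blue marks controls and orange marks ACC or glucose. FIB1 minus FIB2 drops with glucose in all 4 genotypes, from a mean of 2.43 to 0.52 in Col-0.

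ACC for 2 h changed none of the 39 genes in limma, where 5.47% of all genes were called higher and 3.78% lower. At an unadjusted p below 0.05, 3 of them were higher and none lower, a count for which the share of all genes was not taken. edgeR and DESeq2 called none in either direction. The median log2 change was 0.06, against 0.03 for all genes. After 4 h, 7 of the 39 were called higher and none lower, where 10.5% and 8.88% of all genes were, at a median of 0.16 against 0.04. The 7 were NOP10, IMP4, RID2, AT5G15550, EDA25, NMD3 and REIL2, and the largest of their log2 changes was 0.32, of EDA25. REIL2 was at 62.3, 60.8 and 62.2 RPM with mock and 79.2, 73.9 and 72.0 RPM with ACC (log2 change 0.28 ± 0.05 SE, limma adjusted p = 0.00365). EDA25 was at 103, 86.9 and 91.9 and 128, 117 and 107 RPM (log2 change 0.32 ± 0.10 SE, limma adjusted p = 0.0491). RID2 was at 27.5, 26.3 and 24.4 and 33.5, 31.8 and 31.6 RPM (log2 change 0.30 ± 0.08 SE, limma adjusted p = 0.0183). All 3 were higher in every ACC library, but the steps were small beside those with glucose. The count of 7 became 2 without mock 4 h replicate 2 or ACC 4 h replicate 1, and 4 without mock 4 h replicate 3 or ACC 4 h replicate 2; REIL2 was called in each of these fits. Beside these counts, the 3 genes of green tissue summed to 18095 to 19732 RPM with mock for 4 h and to 14524 to 16450 RPM with ACC, and the 3 genes of roots to 57.4 to 67.5 RPM and 73.0 to 77.9 RPM, each with no overlap. Their part in the result was not tested. A fit of the 2 groups alone called 15 higher and 1 lower, where it called 2416 of all 19442 genes higher and 2086 lower. The lower gene was SWA1, at 46.7, 44.2 and 43.1 RPM with mock and 39.3, 37.4 and 37.2 RPM with ACC (log2 change -0.23 ± 0.08 SE, limma adjusted p = 0.0768 over all 4 groups and 0.0173 in the fit of 2).

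A difference of the ACC change between 4 h and 2 h was called in limma for none of the 39 genes (0.00514% of all genes were called higher and 0.0309% lower); 1 of them was higher at an unadjusted p below 0.05. Between mock 2 h and mock 4 h none was called either, where 0.0154% of all genes were called higher and 0.0411% lower. Of the 39, 38 were higher at 4 h, 12 of them at an unadjusted p below 0.05, at a median log2 change of 0.14 against 0.02 for all genes. The shares of all genes with that sign or with such a p were not counted, so these counts stand without a baseline. With edgeR and DESeq2 none of the 39 was called in this comparison or in that of ACC by time. Mock-treated seedlings of this experiment had been grown with 0.5% glucose, and their summed RPM of the 39 genes, 3311 to 4003, lay between the Col-0 sums without and with glucose of the other experiment; the experiments were not tested against each other.

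**Figure D5:**
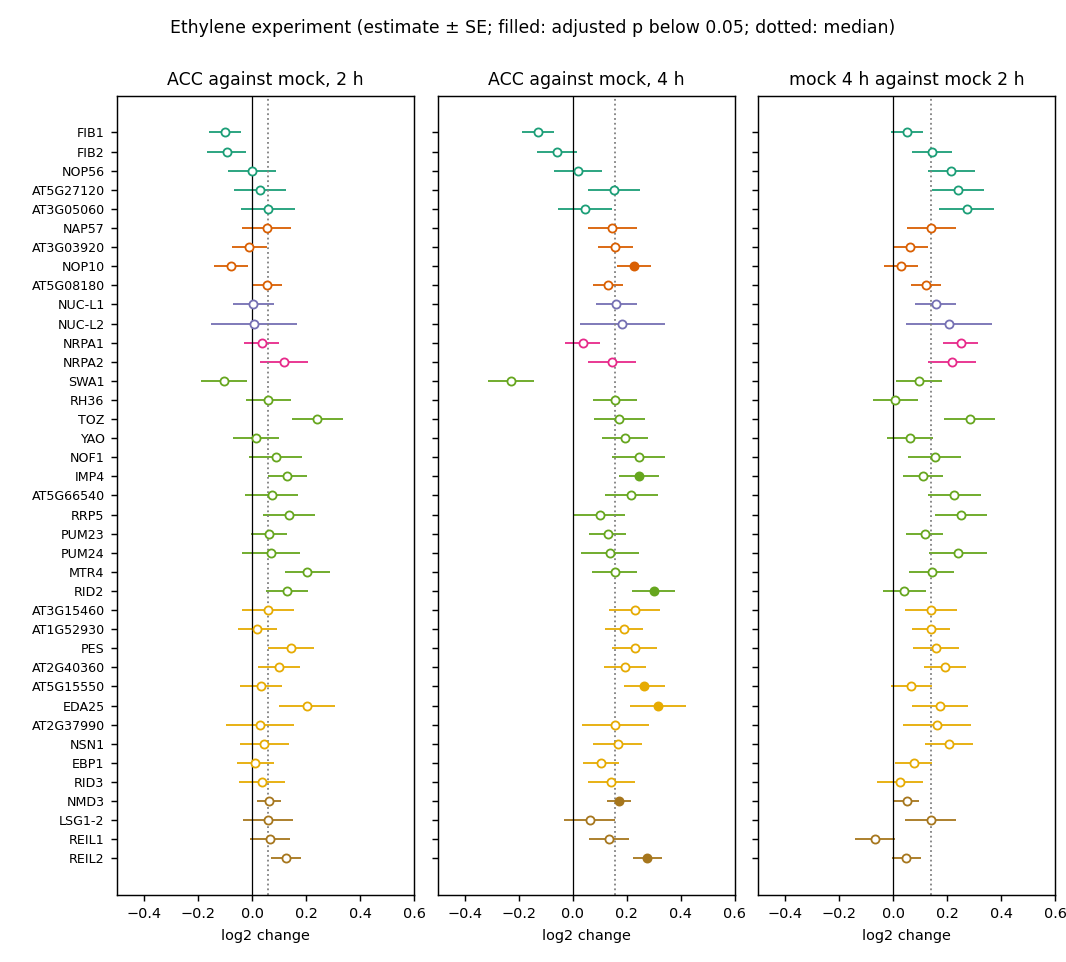
Fitted log2 change (horizontal axes, estimate ± SE from 3 libraries a group) of the 39 genes (rows, coloured by role) with ACC at 2 h, with ACC at 4 h and between mock at 4 h and 2 h; filled points were called and dotted lines are the medians of 0.06, 0.16 and 0.14. The 7 called genes are all in the middle panel.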

How the data were processed

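Messenger RNA of whole seedlings was sequenced in 36 libraries, 3 per group, which the labels call biological replicates. The authors deposited RPM, that is, the reads of each gene code per 1000000 reads; TopHat and HTSeq are named, without a role or version, in the submitters' processing notes, while no genome build or annotation is given in the sources used here. As deposited, the RPM of 100% of values were whole multiples of one read's worth (within 0.02 reads), so whole reads were recovered for use as an alternative, and their totals gave the depth. Levels and fold changes below rest on RPM as deposited. In the glucose-HXK1 experiment, 17352 genes listed for both genotypes were used; 1033 listed for 1 genotype only and 17 codes with a Ler suffix were left out.

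In each experiment, genes that reached 1 RPM in 3 or more libraries were tested with limma 3.58.1 (R 4.3.3, eBayes with trend) on log2(RPM + 1), with all 4 groups of the experiment in the fit. Fold changes are on that scale, which understates changes of low genes. All 39 genes passed in the first 2 experiments and the 37 listed in the last. P-values are two-sided and adjusted by Benjamini-Hochberg over all genes tested, at a threshold of 0.05. The script was tested on simulated data with known changes. The 39 genes, the list of 57 other genes of the pathway, the marker lists and the motifs were chosen with earlier results of these data known. Library values are given for up to 3 called genes with the largest change per role and comparison and for the paralogue pairs; genes named beyond these were chosen after their values were seen. Promoters came from the RefSeq TAIR10.1 genome.

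Alternatives were a median-of-ratios scaling, RPM over the listed nuclear genes, no filter, a pseudocount of 0.25 RPM, a fit of the groups compared only, a replicate block, edgeR 4.0.16 and DESeq2 1.42.0 on the recovered reads, an added 2-fold minimum, and leaving out each library in turn. RPM let all genes shift together: the 6909 higher and 3974 lower genes with glucose in Col-0 became 5593 and 5886 under median-of-ratios scaling. Same-numbered libraries deviated together in mock 2 h and mock 4 h, with correlations of 0.595, 0.411 and 0.382 across genes, and the block changed no call of the 39 genes there.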

Additional observations from a re-analysis of the deposited data

Results flagged for a closer look

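The change with glucose differed between the libraries labelled tor and Col-0 in 31 of the 39 genes, by the interaction term in limma, and that test is what brought each of them here. Values are log2 differences, negative where the change was smaller in the libraries labelled tor. Among the snoRNP proteins the difference was -0.70 for FIB1, -1.83 for FIB2, -1.51 for NOP56, -1.96 for AT5G27120 and -1.35 for AT3G05060. It was -1.27 for NAP57, -0.64 for AT3G03920, -1.21 for NOP10 and -0.82 for AT5G08180. The nucleolins NUC-L1 and NUC-L2 differed by -1.12 and -1.46, and the RNA polymerase I subunits NRPA1 and NRPA2 by -1.28 and -0.93. Of the processing factors, SWA1 differed by -0.98, RH36 by -1.11, TOZ by -1.17, YAO by -1.01, IMP4 by -1.0, RRP5 by -1.32, PUM24 by -1.25 and RID2 by -1.01. Of the assembly factors, AT3G15460 differed by -1.48, AT1G52930 by -1.27, PES by -1.06, AT2G40360 by -1.01 and AT5G15550 by -1.0. EDA25 differed by -1.14, NSN1 by -1.16, EBP1 by -0.76 and RID3 by -0.75. LSG1-2 was the export factor among them, at -0.99. The calls of AT2G40360, AT3G03920, AT3G05060, AT5G08180, EBP1, IMP4, LSG1-2, NSN1, PUM24 and RH36 were each lost in at least 1 fit without a library. Without replicate 1 of the libraries labelled tor with glucose, 37 of the 39 genes were called. In that fit 3631 of all 19284 genes tested were called lower and 1368 higher, at a median of -0.18.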

How the results depend on the processing

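Over the alternatives, 7591 of the single-gene values stayed on the same side of the threshold, and those called kept their direction. Values called in neither fit count among these even where their sign changed. Another 313 kept the direction but fell below the threshold, 148 passed it and 27 values called in either fit changed sign. Of the counts of called genes, 389 stayed within 1.5 times and 61 did not. Where no value shows one, the cause was not tested. The median-of-ratios scaling, edgeR and DESeq2 each gave 1 lower gene with glucose in Col-0 and 1 in Ler, in place of none. For the libraries labelled tor without glucose they gave 1, 1 and 2 higher genes (4 on RPM) and 13, 14 and 13 lower (3 on RPM), and with glucose 0 higher (1 on RPM). Without glucose they called 4819, 4556 and 4741 of all genes higher and 5294, 5452 and 5296 lower. Between gin2 and Ler they gave 5, 4 and 4 higher and 5, 6 and 5 lower without glucose, and 12, 15 and 14 higher and 3, 3 and 3 lower with it. Of all genes, they called 2585, 2431 and 2429 higher and 3018, 2962 and 3017 lower without glucose. With it they called 2974, 3195 and 3002 higher and 2913, 2899 and 2996 lower. RPM over the listed nuclear genes gave 11 higher and 3 lower without glucose and 1 lower with it. edgeR and DESeq2 each gave 1 higher gene in the comparison of the gin2 and Ler responses. With ACC for 4 h, 4 genes were higher with no filter and 15 in the groups compared only, and 1 was lower in that fit, in DESeq2 and under the replicate block. The groups compared only gave 0 higher genes in the libraries labelled tor against Col-0, both with glucose. For the interactions this fit was not run, since an interaction needs all 4 groups and is the same fit. An added 2-fold minimum left 0 genes with ACC for 4 h and 5 for the glucose change in the libraries labelled tor. Between those libraries and Col-0 it left 0 higher and 0 lower without glucose, and 0 higher and 23 lower with glucose. Between gin2 and Ler it left 1 and 14 higher without and with glucose.

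All 27 changes of sign among called values were in gin2 against Ler, where the shift of all genes on RPM was 0.55 and 0.62. Under the median-of-ratios scaling, without glucose, the values were -0.56 for AT3G03920, -0.36 for NOP10, -0.019 for NUC-L1 and -0.45 for AT5G15550. With glucose they were -0.53 for FIB2, -0.016 for NAP57 and -0.45 for AT3G03920. Over the listed nuclear genes they were -0.40 for AT3G03920 and -0.30 for AT5G15550 without glucose and -0.39 for FIB2 with it. In edgeR, without glucose, they were -0.042 for AT3G05060, -0.59 for AT3G03920, -0.39 for NOP10, -0.017 for NUC-L1, -0.58 for AT3G15460 and -0.47 for AT5G15550. With glucose they were -0.52 for FIB2, -0.0061 for NAP57 and -0.44 for AT3G03920. In DESeq2, without glucose, they were -0.048 for AT3G05060, -0.59 for AT3G03920, -0.40 for NOP10, -0.017 for NUC-L1 and -0.47 for AT5G15550. With glucose they were -0.54 for FIB2, -0.025 for NAP57 and -0.46 for AT3G03920.

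Leaving out each library in turn gave 0 to 1 higher genes with ACC for 2 h and 2 to 5 for 4 h. With glucose the range was 36 to 38 in Col-0, 19 to 30 in the libraries labelled tor, 32 to 36 in Ler and 33 in every fit in gin2. The interaction of glucose with the label tor was called for 22 to 37 genes. Between the libraries labelled tor and Col-0, 0 to 1 genes were higher and 35 to 38 lower with glucose, and 2 to 6 higher and 1 to 5 lower without it. In gin2 against Ler, 17 to 27 genes were higher without glucose and 27 to 34 with it.

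The replicate block gave 8 higher and 1 lower gene with ACC for 4 h, 34 higher with glucose in Ler, 24 and 32 higher in gin2 against Ler without and with glucose, and 30 interactions with the label tor. Between the libraries labelled tor and Col-0 it gave 0 higher and 37 lower genes with glucose and 5 higher and 3 lower without it. It changed no other count. Outside the mock libraries, not every pair of same-numbered libraries deviated together across genes, but single pairs did. The correlation was 0.635 between the Ler libraries with and without glucose numbered 3. It was 0.406 between ACC 2 h and mock 2 h numbered 3. What same-numbered libraries share there is therefore not known.

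The shallowest library, of the glucose-HXK1 experiment, held 5.64 M reads on listed genes, and its low genes rest on the fewest reads. With 3 libraries a group, the limma p-values set each change against the spread between these samples. That spread was estimated over all 4 groups of an experiment and drawn toward a trend across all genes.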
